A study of Mus musculus with 64 samples.

Results

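The genes described here are those for potassium channel subunits, taken as every symbol of the count table that starts with Kcn, goes on with lower-case letters and a digit, and has a mean of 10 or more counts over the 64 libraries. Of 24421 symbols, 97 had such a name and 79 of these reached the minimum. The choice used names and mean counts only, so no difference between groups entered it. Kcnmb4os2 lay just inside the limit with a mean of 12.6 counts, and Kcnd3os just outside with 9.86. The 79 comprised 35 voltage-gated pore subunits (of 40 with such a name), 9 of their helper subunits (of 12), 10 calcium- or sodium-activated channel subunits (of 12), 12 inward rectifiers (of 15), 11 leak channels (of 14) and 2 antisense RNAs, Kcnmb4os2 and Kcnq1ot1 (of 4). All 79 passed the filter on low counts and were tested.

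RNA came from punches of 1 mm through the ventral tegmental area (VTA), a midbrain nucleus rich in dopamine neurons, of 64 adult male mice of the strain given as 129S1/Svlm, with 1 library per mouse. Under the genotype label Clock delta 19 (MUT), a mutation that removes an exon of the core clock gene Clock, there were 8 mice given valproate (VPA, a mood stabiliser that also inhibits histone deacetylases), 13 given its vehicle, 8 given ACY957 (an inhibitor of class I histone deacetylases) and 11 given its vehicle. Under the label Wildtype (WT) there were 8 mice given VPA, 3 given its vehicle, 8 given ACY957 and 5 given its vehicle. Treatment lasted 14 days in every group, with tissue collected 6 h after lights on (ZT6) and roughly 24 h past the final treatment. The design text states 8 mice per group, which the vehicle labels do not match.

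Potassium channels set the resting potential of a neuron, end its spikes and pace its firing. In midbrain dopamine neurons, which fire as slow pacemakers, the A-type channel Kcnd3 (Kv4.3) with its partner Kcnip4 and the calcium-activated channel Kcnn3 (SK3) govern the rate and regularity of firing, and the G-protein-gated rectifier Kcnj6 (GIRK2) carries the inhibition exerted by the dopamine D2 autoreceptor. Other members work in other cells: Kcnj10 (Kir4.1) and Kcnj16 (Kir5.1) clear potassium in glia, Kcnc1 (Kv3.1) lets fast-spiking neurons repolarise quickly, and Kcna1 and Kcna2 (Kv1) with the beta subunit Kcnab2 sit along myelinated axons.

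Library totals ran from 20136693 to 37475292 counts. Th, the rate-limiting enzyme of dopamine synthesis, ran from 26.2 to 1716 CPM (counts scaled for library size by TMM), with 4 libraries under 8 log2 CPM: VPA MUT 8 and 2, VPA WT 3 and VPA vehicle MUT 3. The summed level of 11 dopamine neuron markers ran from 386 to 13445 CPM, and none was at 0 in every library. Slc17a7, a glutamate transporter mainly of cortex and hippocampus, had a median of 16.4 CPM but reached 206 in ACY957 MUT 3 and 242 in ACY957 vehicle WT 2. A score of 8 clock output genes fell into 2 separate sets, from 3.92 to 4.33 (29 libraries) and from 4.91 to 5.64 (35 libraries). Of all libraries, 13 (12 labelled MUT and 1 labelled WT) fell in the set that holds most libraries of the opposite genotype. The WT library was ACY957 WT 8. The MUT libraries given a drug were VPA MUT 2 and ACY957 MUT 1 and 3. Those given vehicle were VPA vehicle MUT 3, 5, 6, 7, 8 and 13 and ACY957 vehicle MUT 6, 7 and 8. All of these vehicle libraries except VPA vehicle MUT 3 carry mouse numbers from 48 on. Clock itself differed by a log2 fold change of 0.08 ± 0.05 (SE) between MUT and WT over the 4 treatments, and a count of the whole gene does not report the missing exon. All WT mice carry lower mouse numbers than all MUT mice and no batch is given, so the label and any order of handling cannot be told apart. The labels give 1 mouse per library, and in bulk tissue fewer cells of a type and less RNA per cell cannot be told apart.

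Levels spanned over 3 orders of magnitude when set per length (mean CPM per kb of exon, exon lengths from GENCODE M21). Among inward rectifiers the glial Kcnj10 stood highest of all members with 114 CPM per kb, followed by its glial partner Kcnj16 with 27.7 and Kcnj3 (GIRK1), the partner subunit of GIRK channels, with 9.43. Among voltage-gated pores the highest were Kcna1 (Kv1.1) with 38.7, Kcna6 (Kv1.6) with 29.5 and Kcnc4 (Kv3.4) with 26.1 CPM per kb. Among their helpers Kcnab2 had 49.9, Kcnip4 29.4 and Kcnip3 15.4 CPM per kb. Kcnab subunits bind Kv1 channels and Kcnip subunits bind Kv4 channels, and the class also holds Kcne1l and Kcne4. As a class the helpers had the highest median level, 8.65 CPM per kb, against 3.21 for inward rectifiers, 2.72 for voltage-gated pores, 2.07 for calcium- or sodium-activated channels and 1.05 for leak channels. The leak channel Kcnk1 (TWIK1) had 31.05 CPM per kb, with Kcnk13 (THIK1, known from microglia) at 7.70 and Kcnk2 (TREK1) at 7.68. Calcium- or sodium-activated channels were low throughout, with Kcnmb4, the neuronal beta subunit of BK channels, highest at 3.94, Kcnn2 (SK2) at 3.65 and Kcnn3 at 2.99 CPM per kb. Of the antisense RNAs Kcnmb4os2 had 0.232 and Kcnq1ot1, the lowest of all members, 0.0211 CPM per kb. Exons of 27 members overlap those of another gene, and the strand setting of the counting is not given, so reads of Kcnq1 and Kcnq1ot1, or of Kcnmb4 and Kcnmb4os2, may be shared. Kcnk4 shares 587 exon bases with Catsperz on the same strand.

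**Figure D1:**
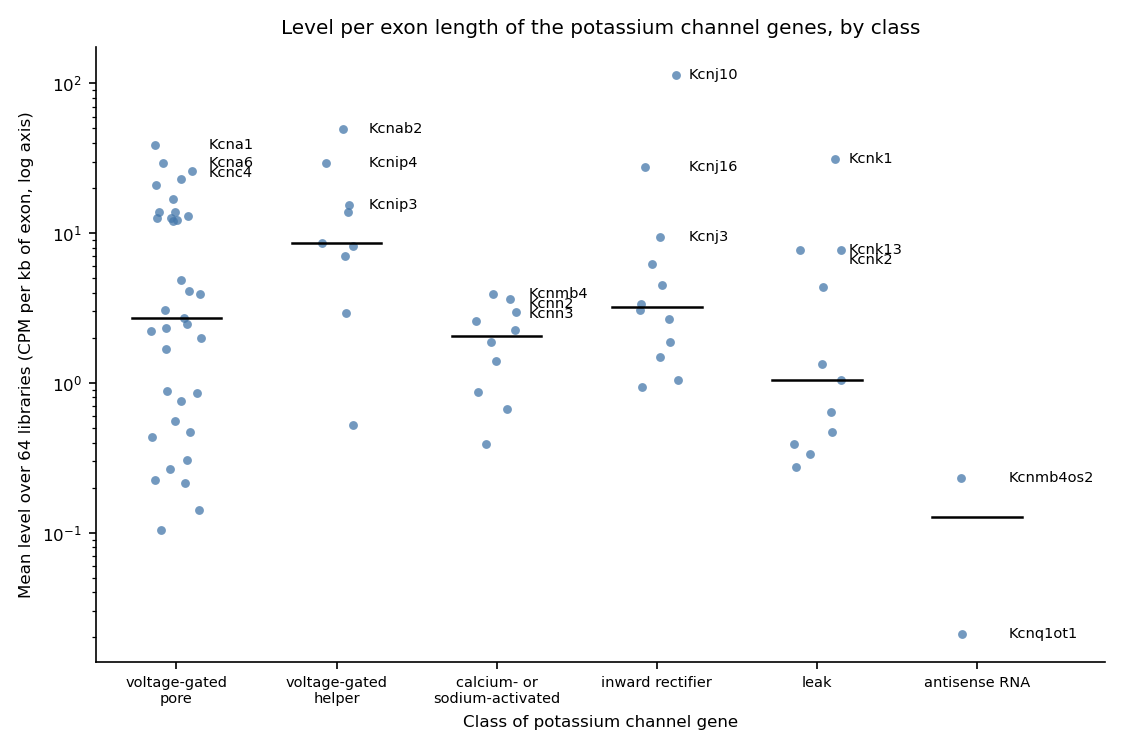
Mean level of each of the 79 potassium channel genes over the 64 libraries in CPM per kb of exon (log axis), by class; each point is a gene, the line is the class median and the 3 highest of each class are named (both antisense RNAs). Kcnj10 stands above all others at 114 CPM per kb, and the calcium- or sodium-activated class reaches no higher than 3.94.

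Members known from other cells of the brain were also measured. Kcnj8 (Kir6.1), a channel of pericytes, had 5.26 to 11.7 CPM over the 64 libraries, Kcnj2 (Kir2.1) 5.82 to 20.6 CPM and Kcna3 (Kv1.3), known from microglia and lymphocytes, 4.90 to 11.2 CPM. Kcnj13 and Kcne2, channels of the choroid plexus, and the calcium-activated Kcnn4 had means of 8.17, 9.73 and 6.41 counts, below the minimum, and are not members.

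The spread between libraries differed widely among members. The SD of log2 CPM over the 64 libraries was largest for Kcnh3 (0.95), Kcnj4 (0.92), Kcng4 (0.73), Kcnmb1 (0.62), Kcnq1 (0.59) and Kcns3 (0.57). It was smallest for Kcna6, 0.11. Whether these differences followed the groups or the make-up of the punch was asked with 1 fit per question across all genes.

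The level of Th between libraries of the same group was examined first. With a mean for each group and log2 CPM of Th as a slope, 33 of 79 members passed an adjusted p of 0.05 (edgeR quasi-likelihood test, Benjamini-Hochberg over 15633 genes), which is 41.8% against 27.8% of all genes. Of these, 9 rose with Th (13.9% of all genes did) and 24 fell (13.9% of all genes). Kcns3, Kcnd3, Kcnj6 and Kcnn3 had the steepest rises. Kcns3 (Kv9.3) forms no channel alone and modifies Kv2 channels, and the roles of the other 3 in dopamine neurons are given above. The windows from 250 bases before to 50 after the RefSeq start of these genes (GRCm38.p6, outermost start where several are listed) are printed because these 4 moved together, with matches to 4 motifs, searched on both strands, in capitals. The first motif is the E-box CACGTG, which the clock proteins bind. The next is the GC box with the letters GGGCGG, common in promoters that lack a sharp start site. The TATA box was searched with the letters TATAAA. The last is the element AAAGGTCA, bound by the NR4A receptors that dopamine neurons use. No motif holds another one. The windows lie at chr12:11150793-11151092 (minus strand), chr3:105451640-105451939 (plus strand), chr16:94997647-94997946 (minus strand) and chr3:89519914-89520213 (plus strand).
Kcns3: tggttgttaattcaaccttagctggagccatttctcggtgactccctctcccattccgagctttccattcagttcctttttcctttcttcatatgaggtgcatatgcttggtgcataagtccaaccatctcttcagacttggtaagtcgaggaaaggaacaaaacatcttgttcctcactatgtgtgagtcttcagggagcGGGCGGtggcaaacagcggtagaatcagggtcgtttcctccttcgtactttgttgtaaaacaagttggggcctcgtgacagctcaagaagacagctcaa
Kcnd3: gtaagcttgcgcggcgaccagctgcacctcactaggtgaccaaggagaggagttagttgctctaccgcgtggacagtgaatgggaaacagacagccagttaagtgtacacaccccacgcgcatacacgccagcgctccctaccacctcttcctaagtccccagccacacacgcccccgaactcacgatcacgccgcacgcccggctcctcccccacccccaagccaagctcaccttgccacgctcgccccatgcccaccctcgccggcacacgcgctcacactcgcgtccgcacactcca
Kcnj6: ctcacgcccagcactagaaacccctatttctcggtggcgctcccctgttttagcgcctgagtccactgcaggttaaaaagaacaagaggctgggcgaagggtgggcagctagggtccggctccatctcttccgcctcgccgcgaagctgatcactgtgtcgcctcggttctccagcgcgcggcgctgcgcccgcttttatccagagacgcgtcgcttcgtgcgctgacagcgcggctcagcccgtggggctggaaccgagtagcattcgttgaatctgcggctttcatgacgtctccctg
Kcnn3: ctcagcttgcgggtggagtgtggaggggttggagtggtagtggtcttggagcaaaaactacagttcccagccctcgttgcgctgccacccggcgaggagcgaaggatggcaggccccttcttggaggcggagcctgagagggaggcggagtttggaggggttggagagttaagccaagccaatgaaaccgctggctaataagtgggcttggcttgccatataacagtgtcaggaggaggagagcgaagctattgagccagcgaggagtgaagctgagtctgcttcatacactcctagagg

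Of these 4 windows, that of Kcns3 holds 1 GC box and the others hold none of the 4 motifs, but a second RefSeq window of Kcnj6, not printed, holds a GC box. Such a match is a description of letters. RefSeq windows were found for 56 of the 79 members, 79 windows in all. At least 1 GC box stood in a window of 38 of these 56 members (67.9%, against 38.2% of all genes with a window), a TATA box in 3 (5.36% against 15.7%), an E-box in 4 (7.14% against 8.09%) and the NR4A element in 1 (1.79% against 1.7%). A gene with more windows has more places for a match. Per window the GC box stood in 50.6% of member windows against 35.7% of all windows, and the TATA box in 3.8% against 13.6%. The E-box stood in 6.33% against 7.15% and the NR4A element in 1.27% against 1.51%. All genes with a window include genes not tested here.

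Per library, Kcns3 had 12.1 and 11.1 CPM in VPA MUT 8 and 2, 11.7 in VPA WT 3 and 13.1 in VPA vehicle MUT 3, the libraries lowest in Th, and 19.5 to 68.8 CPM (median 44.5) in the other 60. Kcnd3 had 55.8, 59.98, 62.9 and 68.1 CPM in the same 4 libraries, against 79.9 to 284 (median 168) in the other 60. In both genes the 4 libraries lay below all the rest. Their slopes were 0.48 ± 0.03 and 0.39 ± 0.03 log2 units per log2 unit of Th (SE, adjusted p = 3.35e-18 and 1.16e-15). In this fit of all 64 libraries a doubling of Th went with a 1.39-fold level of Kcns3 and a 1.31-fold level of Kcnd3.

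Kcnj6 had 3.604, 5.36, 4.87 and 4.83 CPM in the libraries low in Th, in the same order, and 5.06 to 20.5 CPM (median 11.7) in the other 60. Kcnn3 had 12.8, 16.1, 12.9 and 11.2 CPM there, and 14.8 to 55.4 CPM (median 32.2) in the other 60. Here the 4 libraries were low but touched the range of the rest. The slopes were 0.37 ± 0.04 for Kcnj6 and 0.36 ± 0.04 for Kcnn3 (adjusted p = 4.45e-12 and 3.26e-11). Without those 4 libraries all 4 genes still passed, and the slope was steeper, 0.61 for Kcnd3, 0.55 for Kcnj6 and 0.62 for Kcnn3. That of Kcns3 ran from 0.40 to 0.55 over all alternative fits.

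**Figure D2:**
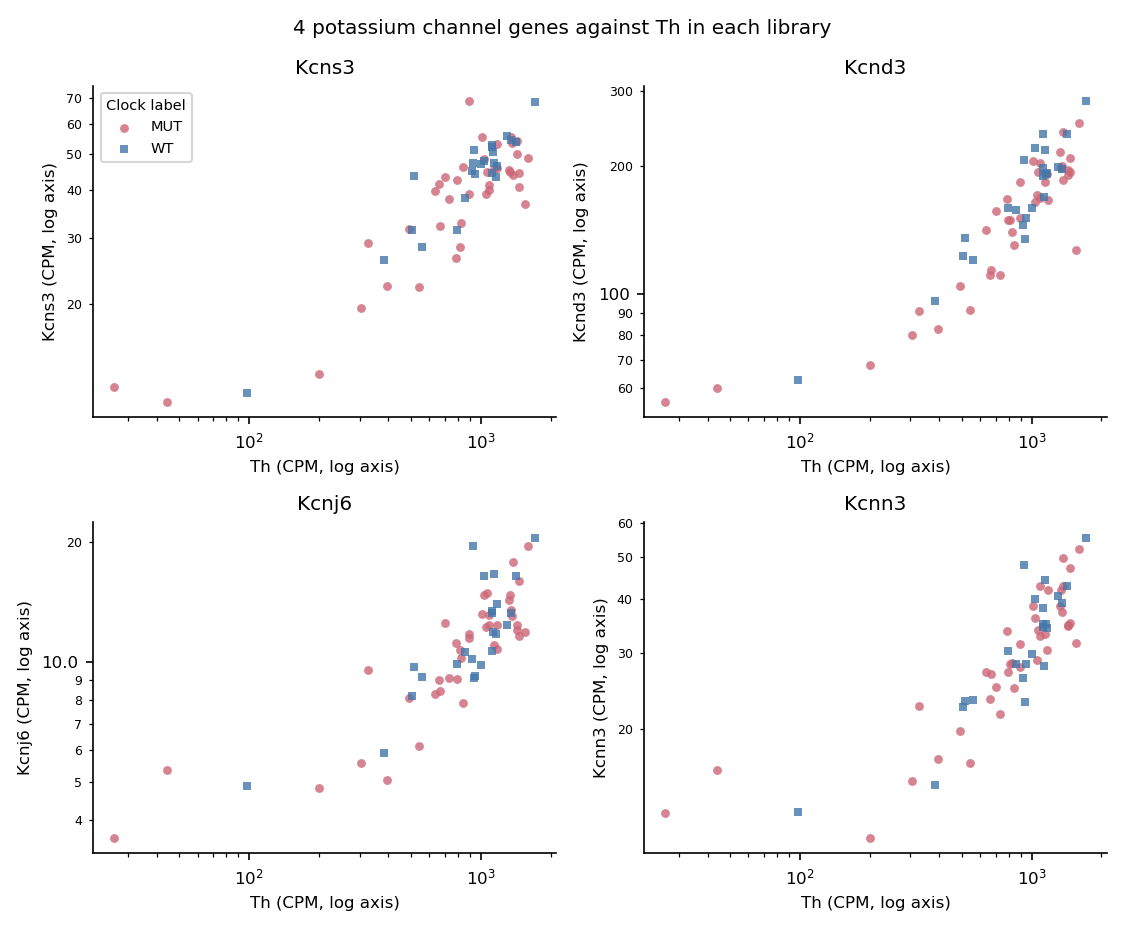
Kcns3, Kcnd3, Kcnj6 and Kcnn3 (CPM, log axis) against Th (CPM, log axis); each point is a library, circles are MUT and squares WT. All 4 genes climb with Th, from 11.1 to 68.8 CPM for Kcns3, and libraries of both labels stand at low and at high Th.

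Of the other members that rose with Th, Kcnip4, whose product binds Kv4 channels, had a slope of 0.18 ± 0.02 (adjusted p = 2.15e-08), with 65.98 to 79.5 CPM in the 4 libraries low in Th and 58.1 to 143 CPM in the other 60. Its slope was 0.30 without these 4. Kcnc2 (Kv3.2) had a slope of 0.16 ± 0.04 (adjusted p = 6.00e-04), Kcnab1 (a beta subunit of Kv1 channels) 0.17 ± 0.04 (adjusted p = 7.61e-04), Kcng4 (Kv6.4, a silent partner of Kv2) 0.35 ± 0.09 (adjusted p = 0.00204) and Kcnh2 (ERG1) 0.06 ± 0.02 (adjusted p = 0.0404). These last 4 missed the threshold without the libraries low in Th (adjusted p between 0.0708 and 0.704), and Kcng4 then had a slope of 0.10. Kcnh2 also missed it when any 1 of 8 libraries was left out, with an adjusted p of 0.160 without VPA WT 3.

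Members that fell with Th came from several classes. The smallest p belonged to the leak channel Kcnk3 (TASK1), whose slope was -0.17 ± 0.02 (adjusted p = 8.25e-11), with 19.7 to 27.7 CPM in the 4 libraries low in Th and 11.1 to 23.6 CPM in the other 60. Kcns2 (Kv9.2, a silent partner of Kv2) followed with -0.19 ± 0.02 (adjusted p = 1.01e-10), then Kcnip1 (KChIP1, a Kv4 partner) with -0.22 ± 0.02 (adjusted p = 1.14e-10) and Kcnc4 with -0.10 ± 0.01 (adjusted p = 6.06e-09). The slope of Kcnip1 was -0.39 without the libraries low in Th. So of the Kv4 pores and Kcnip partners, Kcnd3 and Kcnip4 rose with Th, while Kcnip1 and the other main pore, Kcnd2 (Kv4.2), fell. Kcnd2 had a slope of -0.10 ± 0.02 (adjusted p = 2.01e-04). Kcnd1 (0.04 ± 0.03), Kcnip2 (-0.11 ± 0.04) and Kcnip3 (0.01 ± 0.03) did not pass. Kcnmb1, the beta subunit of BK channels best known from smooth muscle, had the steepest fall, -0.40 ± 0.06 (adjusted p = 4.91e-08), from a low level of 0.642 to 7.42 CPM over all libraries. Without the libraries low in Th its slope was -0.24 and it missed the threshold (adjusted p = 0.147). Kcnmb1 lies within the span of Kcnip1 on the opposite strand, without exon overlap. Whether reads of Kcnip1 entered its count was not tested.

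GIRK subunits moved in opposite directions. Kcnj6 rose with Th as above, while Kcnj9 (GIRK3) fell with a slope of -0.18 ± 0.03 (adjusted p = 4.84e-07), Kcnj3 (GIRK1) with -0.11 ± 0.03 (adjusted p = 0.00189) and Kcnj5 (GIRK4) with -0.14 ± 0.04 (adjusted p = 0.0118). Other inward rectifiers that fell were Kcnj2 (-0.15 ± 0.03) and Kcnj12 (-0.09 ± 0.02), both of the Kir2 type that holds the resting potential. The KATP pore Kcnj11 had a slope of 0.05 ± 0.02 (adjusted p = 0.0957) and did not pass. By class, 5 of 35 voltage-gated pores rose and 13 fell, 2 of 9 helpers rose and 1 fell, 1 of 10 calcium- or sodium-activated subunits rose and 2 fell, 1 of 12 inward rectifiers rose and 5 fell, and 0 of 11 leak channels rose and 3 fell. Over all 79 members the median slope was -0.03, against -0.001 over all genes.

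**Figure D3:**
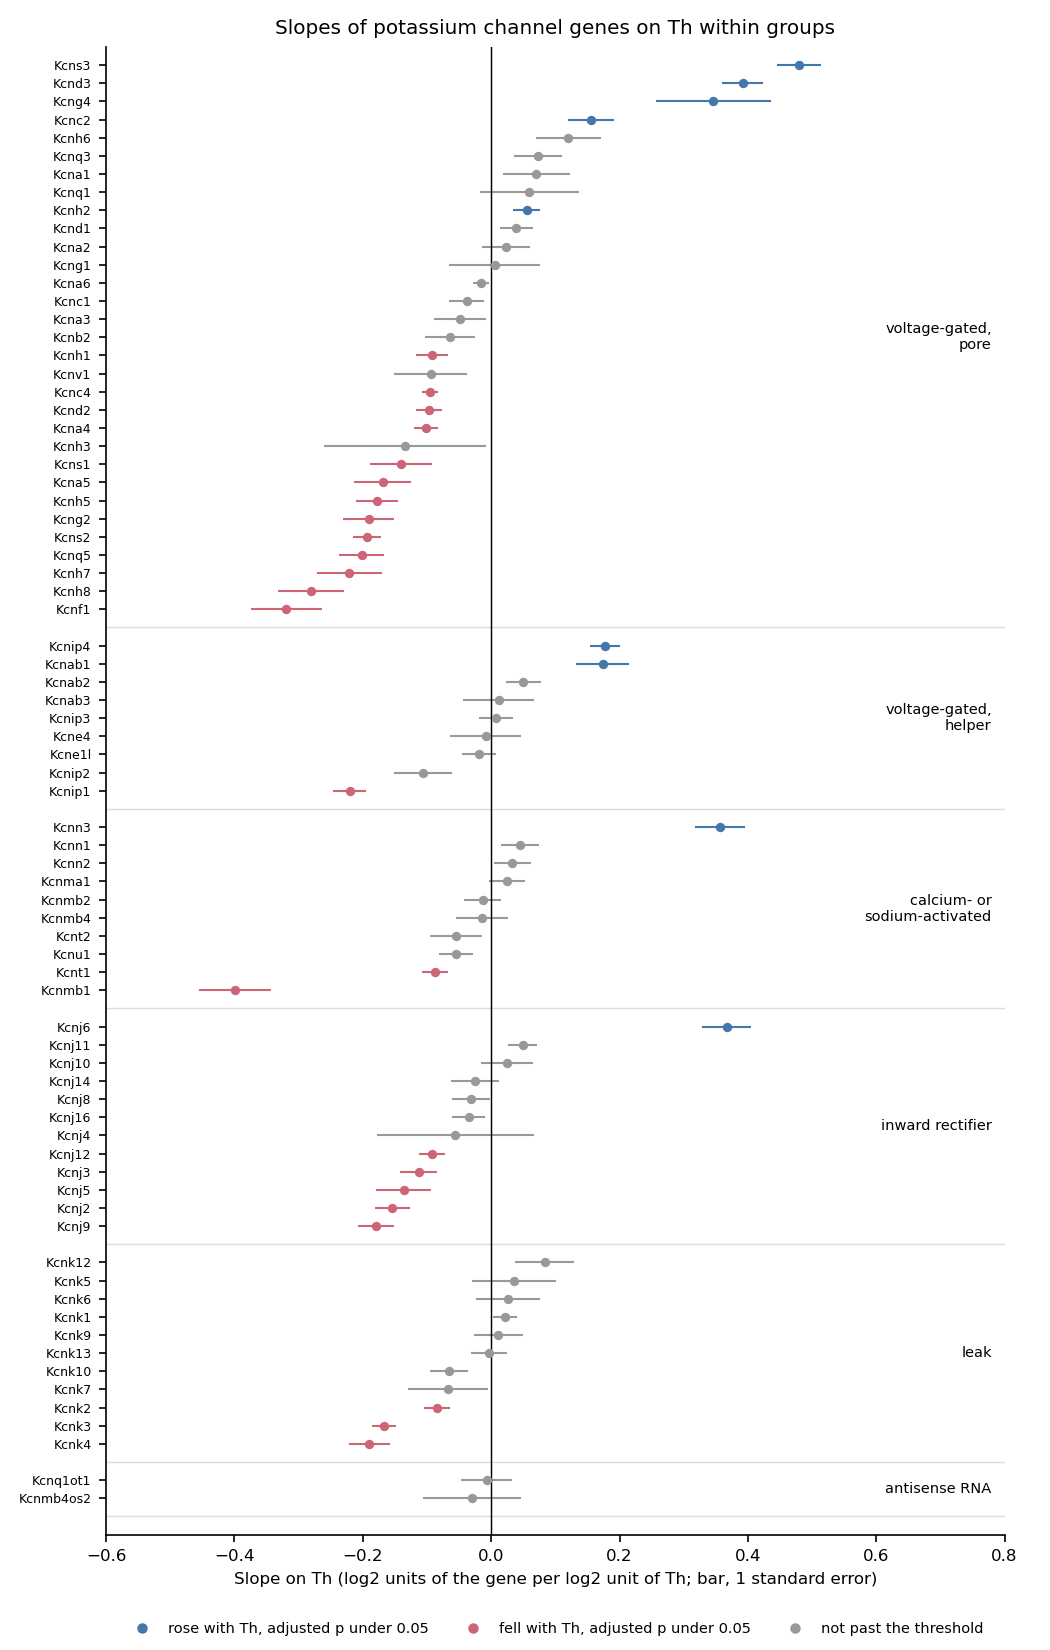
Slope of 75 of the 79 potassium channel genes on Th within groups (log2 units per log2 unit of Th; bars, 1 SE), by class and sorted by slope; blue genes rose with Th, red genes fell and grey genes did not pass an adjusted p of 0.05. The 9 genes that rose are led by Kcns3 at 0.48, and the 24 that fell reach -0.40 at Kcnmb1.

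Some channels with a known role in dopamine neurons did not pass in either direction. Kcnn2 had a slope of 0.03 ± 0.03, Kcnip3 (KChIP3) 0.01 ± 0.03 and Kcna2 0.02 ± 0.04. Kcnh7 (ERG3) fell, with -0.22 ± 0.05 (adjusted p = 4.77e-04). Of the members listed as known from glia or vessels, Kcnj2 fell as above, as did Kcnmb1, which is not on that list, and the others on it did not pass: Kcnj10 had 0.02 ± 0.04, Kcnj16 -0.04 ± 0.03, Kcnj8 -0.03 ± 0.03, Kcnk13 -0.003 ± 0.028 and Kcna3 -0.05 ± 0.04.

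Other genes of potassium currents and their control also followed Th. Of 28 partners tested, 12 passed (42.9%, against 27.8% of all genes), 8 of them upward and 4 downward. The dopamine autoreceptor Drd2, which opens GIRK channels, had a slope of 0.52 ± 0.03 (adjusted p = 1.33e-22), the neurotensin receptor Ntsr1 0.51 ± 0.04 (adjusted p = 4.01e-17) and Lrrc55, an auxiliary subunit of BK channels, 0.29 ± 0.03 (adjusted p = 3.92e-12). Among the hyperpolarization-activated pacemaker channels Hcn3 rose with 0.23 ± 0.03 and Hcn4 with 0.19 ± 0.04 (adjusted p = 2.82e-11 and 5.44e-04). The opioid receptor Oprm1 (-0.24 ± 0.06) and the serotonin receptor Htr1a (-0.11 ± 0.03), whose G proteins also open GIRK channels, fell. Other cell types moved with Th as well: all 10 tested dopamine neuron markers other than Th rose, 3 of 5 hypothalamic markers fell and 1 rose, 2 of 3 glutamate neuron, 1 of 2 oligodendrocyte precursor and 2 of 4 choroid plexus and ependyma markers fell, 2 of 6 astrocyte markers rose and 4 fell, and none of the 3 GABA neuron, 6 oligodendrocyte, 5 microglia or 6 endothelial and mural markers passed. Their part in the slopes of the members was not tested beyond the fit that follows.

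Pvalb, a calcium buffer of fast-spiking neurons, and Slc17a7 were then used as slopes in the same way, both chosen after their values had been seen, so the counts are a description. With Pvalb, 39 of 79 members passed (49.4%, against 27.6% of all genes), 18 upward (13.7% of all genes) and 21 downward (13.9% of all genes). Kcng4 was steepest with 1.05 ± 0.05 log2 units per log2 unit of Pvalb, and others that rose were Kcns3 with 0.56 ± 0.09, Kcna1 with 0.45 ± 0.05, Kcnab1 with 0.45 ± 0.05 and Kcnc2 with 0.42 ± 0.04. Kcna1, Kcna2, Kcnab2 and Kcnc1, known from fast-spiking cells and myelinated axons, were among 12 members that rose with Pvalb and did not pass on Th or Slc17a7. Also among the 12 were Kcnd1, Kcnn1, the KATP pore Kcnj11 and the leak channels Kcnk1, Kcnk5 and Kcnk12. Other Kv1 and Kv3 pores fell with Pvalb: Kcna3 (-0.20 ± 0.06), Kcna4 (-0.19 ± 0.03), Kcna5 (-0.38 ± 0.06) and Kcnc4 (-0.12 ± 0.02). All 6 oligodendrocyte markers also rose with Pvalb, and their part in these slopes was not tested. Kcnj6, Kcnn3 and Kcnip4 passed on Th and not on Pvalb, with Pvalb slopes of 0.20 ± 0.10, 0.15 ± 0.10 and 0.11 ± 0.05. In 1 fit with Th, Pvalb and Slc17a7 together, 25 of the 33 members kept their call on Th, among them Kcns3, Kcnd3, Kcnj6, Kcnn3 and Kcnip4, while Kcng4, Kcnc2, Kcnab1 and Kcnh2 had slopes on Th of 0.01 to 0.03 and missed the threshold.

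With Slc17a7, 6 of 79 members passed (7.59%, against 1.34% of all genes), all upward. These were Kcnh3 (Kv12.2) with a slope of 0.60 ± 0.05, Kcnj4 (Kir2.3) with 0.56 ± 0.05, the silent subunit Kcnv1 (Kv8.1) with 0.21 ± 0.03, Kcnip2 (KChIP2) with 0.19 ± 0.02, Kcng2 with 0.13 ± 0.03 and Kcnmb4 with 0.12 ± 0.03. Kcnj4 had 14.99 CPM in ACY957 MUT 3 and 22.9 in ACY957 vehicle WT 2, the 2 libraries over 100 CPM of Slc17a7, against a median of 2.85 over all libraries. Kcnh3 had 12.4 and 14.8 CPM in the same 2 libraries, against a median of 1.69. Kcnv1 had 20.2 and 41.7 CPM there, against a median of 9.58. These 2 libraries were the highest of all 64 for Kcnj4, Kcnh3 and Kcnv1. Without them Kcnh3, Kcnj4 and Kcnip2 still passed, with slopes of 0.53, 0.47 and 0.16. Kcnv1, Kcnmb4 and Kcng2 did not, with slopes of 0.11, 0.098 and 0.12 (adjusted p = 0.114, 0.382 and 0.298), so that of Kcnv1 was lower and those of Kcnmb4 and Kcng2 differed little from the values above. On Th, Pvalb or Slc17a7, 53 of 79 members passed at least once (67.1%, against 40.2% of all genes).

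**Figure D4:**
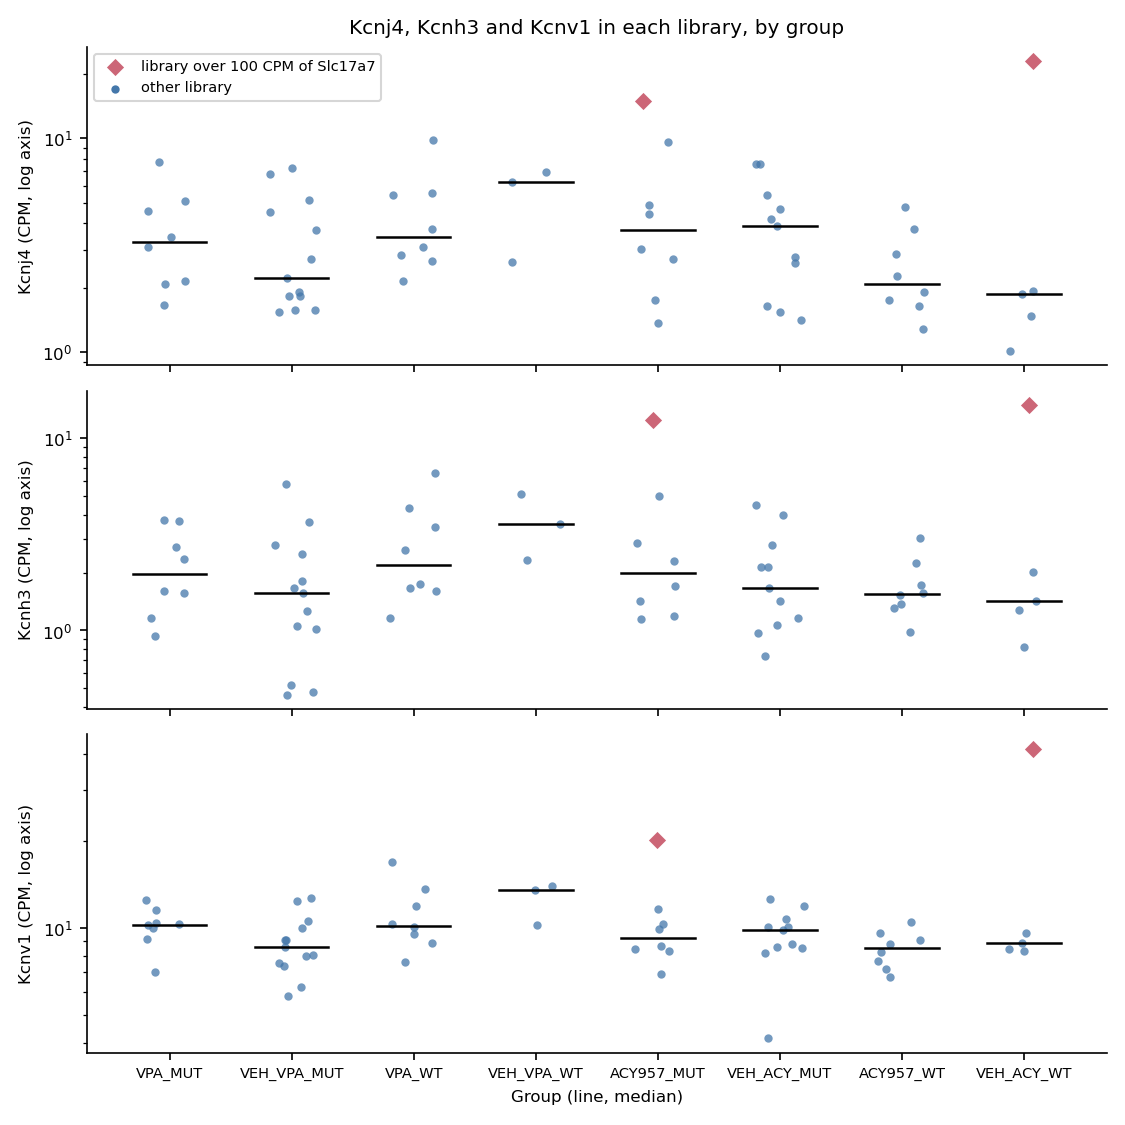
Kcnj4, Kcnh3 and Kcnv1 (CPM, log axis) in each library by group; points are libraries, lines are group medians and diamonds are the 2 libraries over 100 CPM of Slc17a7. In each panel the 2 diamonds, 14.99 and 22.9 CPM for Kcnj4, are the highest of all libraries.

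The comparisons of groups called no member. In each of 13 comparisons 0 of 79 members passed an adjusted p of 0.05 with edgeR's quasi-likelihood test over 15634 genes. The share of all genes that passed was itself small, as given with each comparison, and counts at an unadjusted p under 0.05 are set beside the share of all genes at that same limit. DESeq2 called Kcnj14 and Kcnq1ot1 in 1 comparison each, and limma voom called none. The share of all genes that DESeq2 called is not given here. A p that misses the threshold does not show that the levels were alike.

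**Figure D5:**
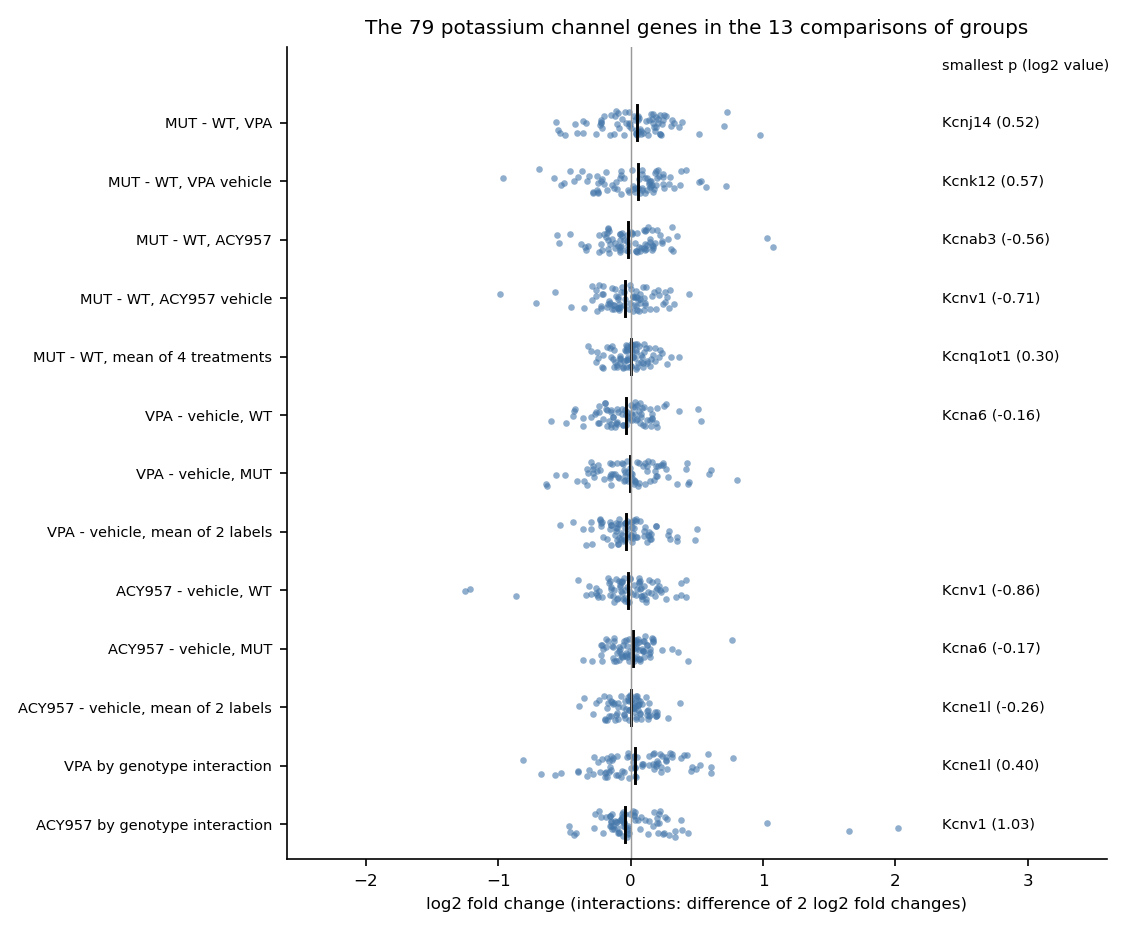
log2 fold change of the 79 potassium channel genes in each of the 13 comparisons of groups (for interactions, the difference of 2 log2 fold changes); points are genes, the black line is their median and the gene with the smallest p is named for most comparisons. Medians lie close to 0 throughout, and none of the 79 passed an adjusted p of 0.05 in any comparison.

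The genotype comparisons asked whether the Clock label changes these channels under each treatment. Among VPA-treated mice (0.934% of all genes passed), 19 members (24.1%) had an unadjusted p under 0.05, against 15.6% of all genes, and the median log2 fold change of members was 0.05, against 0.003 over all genes. Kcnj14 (Kir2.4) had 2.10 to 2.79 CPM (median 2.58) in VPA MUT mice and 1.12 to 2.53 CPM (median 1.75) in VPA WT mice. All 8 MUT values lay above the WT median, but the groups overlapped, and the log2 fold change was 0.52 ± 0.15 (adjusted p = 0.0647). Kcne1l (Kcne5, a helper of Kcnq channels) had a mean of 24.5 ± 5.37 CPM in MUT and 19.5 ± 2.41 CPM in WT mice (SD, n = 8 each), with a log2 fold change of 0.33 ± 0.11 (adjusted p = 0.101), and Kcnmb1 one of 0.98 ± 0.33 (adjusted p = 0.119). The Kcnmb1 value fell to 0.52 without VPA MUT 8 and to 0.40 without all 4 libraries low in Th. Without VPA WT 3, which is low in Th, Kcnj14, Kcnmb1 and Kcnh8 passed, all higher in MUT. The share of all genes is not given for that fit, which kept VPA MUT 8 and 2, also low in Th. Kcnmb1 and Kcnh8 fell with Th (slopes of -0.40 and -0.28), while Kcnj14 did not pass on Th. The part of Th in these calls was not tested.

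The members that followed Th were not called here. Kcns3 had 11.1 to 55.5 CPM (median 31.9) in VPA MUT and 11.7 to 68.3 CPM (median 45.7) in VPA WT mice. Kcnd3 had 55.8 to 199.9 CPM (median 101.4) in VPA MUT and 62.9 to 284 CPM (median 170) in VPA WT mice. The groups overlapped, with log2 fold changes of -0.42 ± 0.26 and -0.55 ± 0.23 (adjusted p = 0.431 and 0.234). Th itself had 26.2 to 1430 CPM in VPA MUT and 98.1 to 1716 CPM in VPA WT mice, a log2 fold change of -0.59 ± 0.43.

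Among VPA-vehicle mice (0.0064% of all genes passed) 5 members (6.33%) had an unadjusted p under 0.05, against 5.09% of all genes. Kcnk12 (THIK2) had the smallest, with 1.82 to 5.35 CPM (median 2.88) in MUT and 1.47, 2.20 and 2.26 CPM in WT mice, a log2 fold change of 0.57 ± 0.25 (adjusted p = 0.917). Kcnt2, a sodium-activated channel, had -0.46 ± 0.20 and the leak channel Kcnk6 -0.53 ± 0.24. The Kcnt2 value was -0.27 without VPA vehicle WT 2 and the Kcnk6 value -0.31 without VPA vehicle WT 1. With 3 WT mice this comparison is the least precise of the 4. Its VPA vehicle MUT libraries 3, 5, 6, 7, 8 and 13 are among those whose clock output went against their label. Among ACY957-treated mice (0% of all genes passed) 6 members (7.59%) had an unadjusted p under 0.05, against 4.81% of all genes, led by Kcnab3, a beta subunit of Kv1 channels, with 16.1 to 28.3 CPM (median 20.3) in MUT and 22.8 to 47.7 CPM (median 27.1) in WT mice, a log2 fold change of -0.56 ± 0.20 (adjusted p = 0.867). With Th, Pvalb and Slc17a7 as covariates it was -0.24. Kcnk4 had -0.37 ± 0.16 and Kcnj4 1.08 ± 0.50. The Kcnj4 value was 0.64 without ACY957 MUT 3, the library high in Slc17a7.

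Among ACY957-vehicle mice (0.0128% of all genes passed) 4 members (5.06%) had an unadjusted p under 0.05, against 3.57% of all genes. Kcnv1 had the smallest, with 4.14 to 12.6 CPM (median 9.84) in MUT mice and 8.45, 41.7, 8.32, 9.61 and 8.84 CPM in WT mice. The 1 high WT value is the library high in Slc17a7, and without it the log2 fold change of -0.71 ± 0.23 turned to 0.09. Kcnq1ot1 had 0.44 ± 0.17, with 1.38 to 3.11 CPM (median 1.95) in MUT and 1.23, 1.49, 1.18, 1.91 and 1.68 CPM in WT mice, and Kcnab1 had -0.45 ± 0.19, which was -0.28 without ACY957 vehicle WT 2 and -0.17 with the 3 covariates.

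The mean of the 4 genotype comparisons (1.56% of all genes passed) gave the most precise view, with 12 members (15.2%) at an unadjusted p under 0.05, against 14.3% of all genes. Kcnq1ot1, a long antisense RNA of the imprinted Kcnq1 locus, came closest, with mean levels of 2.11, 2.04, 2.25 and 2.03 CPM in MUT mice given VPA, its vehicle, ACY957 and its vehicle, and 1.71, 1.66, 2.00 and 1.497 CPM in the matching WT groups. All 4 MUT means lay above their WT means, and the log2 fold change was 0.30 ± 0.09 (adjusted p = 0.0538). It passed with DESeq2 (adjusted p = 0.0413), with upper-quartile scaling (0.0458), and in 12 of the 64 fits that left out 1 library, so its side of the threshold rests on such choices. Kcnk2 had 0.14 ± 0.05 (adjusted p = 0.126), which was 0.070 with Th, Pvalb and Slc17a7 as covariates, and Kcnj14 0.24 ± 0.08 (adjusted p = 0.133).

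The 13 libraries whose clock output went against their label were left out in a further fit. Without them 0 members passed under VPA, its vehicle, ACY957 or its vehicle, where 0.836%, 0.18%, 0.309% and 0.322% of all genes did. In the mean of the 4, where 4.34% of all genes passed, 3 members did: Kcnn2 and Kcnk2 higher in MUT and Kcnab1 lower. These libraries were left out by an expression score, which is not independent of the genotype. The partner Amigo1, an auxiliary subunit of Kv2 channels, was the 1 partner of 28 that passed in the mean of the 4, with a log2 fold change of 0.10 ± 0.02 (adjusted p = 0.0141).

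CLOCK and its partner BMAL1 bind the E-box CACGTG, and the 4 members with this motif in a RefSeq window are shown for that reason. Each stretch holds the E-box in capitals with up to 25 bases on either side inside the window. Kcnab1 has it in 2 windows, at chr3:65108827-65108882 and chr3:65188033-65188088 (plus strand), Kcne4 at chr1:78816832-78816887 (plus strand), Kcnj2 at chr11:111066055-111066110 (plus strand) and Kcnk5 at chr14:20181733-20181781 (minus strand), and the GC box in the Kcnj2 stretch is in capitals too.
Kcnab1, first window: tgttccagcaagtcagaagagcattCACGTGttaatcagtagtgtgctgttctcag
Kcnab1, second window: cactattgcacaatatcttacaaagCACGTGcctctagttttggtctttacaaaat
Kcne4: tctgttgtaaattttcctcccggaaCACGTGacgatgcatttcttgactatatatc
Kcnj2: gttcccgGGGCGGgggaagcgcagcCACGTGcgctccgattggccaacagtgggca
Kcnk5: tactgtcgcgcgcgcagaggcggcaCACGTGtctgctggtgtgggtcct

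None of these 4 passed in the mean of the genotype comparisons. Kcnab1 had a log2 fold change of -0.26 ± 0.10 (adjusted p = 0.173), Kcne4, a helper that inhibits several Kv channels, -0.30 ± 0.11 (adjusted p = 0.188), Kcnj2 -0.14 ± 0.07 (adjusted p = 0.375) and the leak channel Kcnk5 (TASK2) -0.12 ± 0.14 (adjusted p = 0.738). A motif in this window is not a binding site that was measured.

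VPA against its vehicle was compared under each label. In WT mice (0.0256% of all genes passed) 5 members (6.33%) had an unadjusted p under 0.05, against 4.25% of all genes. Kcna6 had 148 to 180 CPM (median 161) with VPA and 159.5, 175 and 205 CPM with vehicle, a log2 fold change of -0.16 ± 0.06 (adjusted p = 1.00). Kcnj10 had 366 to 768 CPM (median 538) with VPA and 620, 753 and 941 CPM with vehicle, a log2 fold change of -0.49 ± 0.20. Both sets of groups overlapped. Kcnj14 had -0.42 ± 0.20. Without VPA vehicle WT 1 the values were -0.058 for Kcna6, -0.32 for Kcnj10 and -0.27 for Kcnj14.

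In MUT mice (0.0576% of all genes passed) 20 members (25.3%) had an unadjusted p under 0.05, against 12.6% of all genes. Kcnk2, a leak channel, had a log2 fold change of 0.24 ± 0.08, with 33.5 to 54.1 CPM (median 42.5) under VPA and 26.4 to 42.6 CPM (median 35.4) under vehicle (adjusted p = 0.169), and the groups overlapped. Kcnmb4 had 0.44 ± 0.14 (adjusted p = 0.170). Pvalb differed by -0.60 ± 0.28 between these same groups and Th by -0.28 ± 0.39 (log2), and in a fit with both and Slc17a7 as covariates 0 members passed and the values were 0.037 for Kcnk2 and 0.28 for Kcnmb4. The Kcnk2 value was also lower without the libraries low in Th (0.14), without those against their label in clock output (0.099) and without the vehicle libraries from mouse 48 on (0.079). With VPA and vehicle averaged over both labels (0.0448% of all genes passed) 7 members (8.86%) had an unadjusted p under 0.05, against 10.3% of all genes, among them Kcna6 with -0.11 ± 0.04 (adjusted p = 0.278) and Kcnk13 with -0.23 ± 0.09 (adjusted p = 0.335). These were -0.062 for Kcna6 without VPA vehicle WT 1 and -0.15 for Kcnk13 without VPA vehicle WT 3.

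ACY957 against its vehicle gave the same count of 0. In WT mice (0.0064% of all genes passed) 5 members (6.33%) had an unadjusted p under 0.05, against 3.28% of all genes. Kcnv1 had -0.86 ± 0.25, with 6.77 to 10.4 CPM under ACY957 against the 5 vehicle values given above, and Kcnh3 had -1.25 ± 0.56, with vehicle values of 1.28, 14.8, 1.43, 0.823 and 2.01 CPM. Both rest on ACY957 vehicle WT 2: without it the value was -0.06 for Kcnv1 and turned to 0.31 for Kcnh3. Kcnq1ot1 had 0.42 ± 0.18 (adjusted p = 0.999), with 1.56 to 3.01 CPM (median 1.97) under ACY957.

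In MUT mice (0.0064% of all genes passed) 5 members (6.33%) had an unadjusted p under 0.05, against 6.25% of all genes. Kcna6, the least variable member, had 158 to 184 CPM (median 162) under ACY957 and 168 to 206 CPM (median 189) under vehicle. All 8 ACY957 values lay below the vehicle median, and the log2 fold change was -0.17 ± 0.05 (adjusted p = 0.284). Kcne1l had 14.2 to 23.3 CPM (median 17.5) under ACY957 and 17.7 to 30.6 CPM (median 23.4) under vehicle, a log2 fold change of -0.36 ± 0.10 (adjusted p = 0.298). Kcnj8 had -0.29 ± 0.11 (adjusted p = 0.607). Kcne1l passed when the libraries against their label in clock output were left out, with -0.50 in MUT mice (adjusted p = 0.0357), where 0.0515% of all genes passed. Over both labels (0.0256% of all genes passed) 10 members (12.7%) had an unadjusted p under 0.05, against 8.12% of all genes, led by Kcne1l with -0.26 ± 0.08 (adjusted p = 0.242), Kcnip3 with -0.20 ± 0.08 (adjusted p = 0.449) and Kcna6 with -0.09 ± 0.04 (adjusted p = 0.455).

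Whether a drug acted differently under the 2 labels was tested as an interaction. For VPA (0.0064% of all genes passed) 4 members (5.06%) had an unadjusted p under 0.05, against 2.83% of all genes, with Kcne1l at 0.40 ± 0.17, Kcnk12 at -0.68 ± 0.31 and Kcna4 (Kv1.4) at 0.31 ± 0.14, each with an adjusted p of 1.00. The Kcna4 value was 0.077 without the vehicle libraries from mouse 48 on and 0.14 with the 3 covariates. For ACY957 (0% of all genes passed) 4 members had one, against 1.77% of all genes, with Kcnv1 at 1.03 ± 0.33, Kcnh3 at 2.02 ± 0.72 and Kcnj4 at 1.65 ± 0.71, each with an adjusted p of 1.00. These 3 genes are those raised in the 2 libraries high in Slc17a7, and without these libraries Kcnv1 was at 0.02, and Kcnh3 and Kcnj4 turned to -0.21 and -0.70. Without ACY957 vehicle WT 2 alone, Kcnv1 was at 0.22, Kcnh3 at 0.46 and Kcnj4 at -0.26.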

How the data were processed

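The deposited table holds HTSeq gene counts for 64 libraries, made by the authors from stranded poly(A) RNA reads of 75 bases on mm10. Alignment was by TopHat2 (2.0.9) per the series' design text, but by HISAT2 after Trimmomatic per the submitters' processing notes, so the aligner is not settled; HTSeq is 0.6.1 in the design text. The annotation and strand setting are not given in the sources used here.

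Here edgeR 4.0.16 (R 4.3.3) scaled the counts by TMM and dropped low genes (filterByExpr). It fitted 8 group means with the robust quasi-likelihood test, and Benjamini-Hochberg adjustment ran over all genes tested, with 0.05 as threshold. Slopes on Th used the same fit with log2 CPM of Th (prior count 2) added. Errors of fold changes and slopes are SE. The steps were tested on simulated data. DESeq2 1.42.0, limma 3.58.1 voom, upper-quartile scaling, no filter and left-out libraries were alternatives. Slopes on Pvalb and Slc17a7, the fit with all 3 covariates and the fits without libraries high in Slc17a7 were added after seeing the data. Members, partner and marker lists were chosen with earlier results of these data known. Named by rule were the 3 members of smallest p in each comparison of groups, the 6 of smallest p in each direction of the Th slope, the 3 highest per class, the 6 of largest spread, and lists known from dopamine neurons and from glia, vessels or choroid plexus; others named with Pvalb, Slc17a7, GIRK or Kv4 subunits were picked after their values were seen. Some genes that these rules name are not reported here. Exon lengths came from GENCODE M21, and promoter windows from RefSeq (GRCm38.p6).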

Additional observations from a re-analysis of the deposited data

Results flagged for a closer look

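Of 395 sets of libraries (79 members in each of 5 groups of 4 to 10 libraries), 24 had 1 library far from the rest by Dixon's test at the 95% level, where chance gives about 1 in 20. ACY957 MUT 1 and ACY957 vehicle WT 2 gave 4 of them each, and VPA WT 3 gave 3.

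ACY957 vehicle WT 2, the library highest in Slc17a7, stood above its group for Kcnj4 (22.9 CPM), Kcnv1 (41.7 CPM), Kcnmb4 (20.6 CPM) and Kcnt2 (8.80 CPM). In the same group Kcnj11 (19.5 CPM) and Kcnj16 (133 CPM) were high in ACY957 vehicle WT 3, and Kcnk12 (1.80 CPM) low in ACY957 vehicle WT 1. VPA WT 3, low in Th, was high for Kcna6 (180.4 CPM) and low for Kcnab1 (44.5 CPM) and Kcnh6 (0.620 CPM). Kcne1l was low in VPA WT 5 (14.2 CPM) and Kcnk9 high in VPA WT 6 (20.3 CPM).

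ACY957 MUT 1 was high for Kcnj14 (3.83 CPM) and Kcnq1 (1.02 CPM) and low for Kcns3 (32.3 CPM) and Kcnt2 (2.68 CPM). ACY957 MUT 5 was low for Kcnh6 (0.674 CPM) and Kcnk6 (0.595 CPM), and ACY957 MUT 8 high for Kcnq5 (23.8 CPM). VPA MUT 2, low in Th, was low for Kcnq1 (0.0761 CPM). ACY957 WT 6 was high for Kcna5 (11.8 CPM) and low for Kcna6 (150.3 CPM), and ACY957 WT 8 was low for Kcnh6 (1.08 CPM) and high for Kcnj8 (11.7 CPM).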

How the results depend on the processing

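Across 142 alternative fits of the 13 comparisons of groups, 132 called 0 members, and of 320 fits that left out 1 library 303 did. DESeq2 called 1 member among VPA-treated mice (Kcnj14) and 1 in the mean of the 4 genotype comparisons (Kcnq1ot1). Upper-quartile scaling and the fit without the libraries low in Th each called 1 in that mean (Kcnq1ot1), the fit without the 16 vehicle libraries from mouse 48 on called 2 (Kcnk2 and Kcnab1), and the fit with Th, Pvalb and Slc17a7 as covariates called 2 there (Kcnq1ot1 and Kcnk1) and 1 among VPA-treated mice (Kcnk1). Without the 13 libraries against their label in clock output, 3 members passed in the mean of the 4, 1 for ACY957 in MUT mice and 1 for ACY957 over both labels. Leaving out 1 library gave 0 to 3 calls among VPA-treated mice, 0 to 1 in the mean of the 4, 0 to 1 for VPA in MUT mice (Kcnmb1, without VPA vehicle MUT 3) and 0 in the other comparisons of groups. Without the 13 libraries, the share of all genes is given above for the mean of the 4 and for ACY957 in MUT mice. It is not given for the other alternative fits, so their counts of members cannot be set against all genes. For ACY957 and the label, limma voom gave interactions of 0.68 for Kcnv1, 0.88 for Kcnh3 and 0.42 for Kcnj4, under the edgeR values. The causes were not tested.

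The count of members that followed Th was 26 to 35 under the other settings and 31 to 36 with 1 library left out. On Slc17a7, 3 of the 6 passed without the 2 libraries over 100 CPM. Those 2 libraries also turned signs: without them Kcnv1 was 0.093 between MUT and WT under ACY957 vehicle, Kcnh3 0.31 for ACY957 in WT mice, and the ACY957 interaction -0.21 for Kcnh3 and -0.70 for Kcnj4. With 1 library left out these ran from -0.87 to 0.093 for Kcnv1, from -1.52 to 0.31 for Kcnh3 in WT mice and from -0.26 to 1.92 for the Kcnj4 interaction, the turned sign in each case without ACY957 vehicle WT 2. Of 2528 alternative values of single members, 2472 kept direction and side of the threshold, 23 lost the call, 26 gained it and 7 changed sign. Many belong to group comparisons not called in the main fit, where a value could keep direction and side and still move far. For ACY957 in WT mice, Kcnv1 ran from -1.02 to -0.058 with 1 library left out, and all 13 fits kept direction and side.

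No paired analysis was possible because the labels give no replicate numbers shared between groups; numbers follow the order of samples only. With 3 and 5 WT vehicle mice, small differences were not detectable, and members near 1 CPM rest on few counts.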
